A study of Mus musculus with 14 samples.

Results

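The 41 genes described here encode the working parts of the lysosome: 3 transcription factors that regulate lysosomal genes, 7 membrane proteins, 18 hydrolases, 2 lumenal cofactors and 11 parts of the proton pump that acidifies the organelle. They were taken by gene name from the annotation of the array, out of 27343 gene names on it. Where several probes carried a name, the brightest one stood for the gene, so 19 genes rest on a single probe and 22 on 1 chosen among several. All 41 were found, all were well above background on all 14 arrays, and all 41 were tested.

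The lysosome breaks down what a cell engulfs, takes up or discards from within, and phagocytes such as macrophages depend on it to digest particles. Its hydrolases work only in an acidic lumen, which the vacuolar H+-ATPase (V-ATPase) maintains by pumping protons through its membrane sector, V0, with energy from ATP split by its cytosolic sector, V1. The transcription factors TFEB, TFE3 and MITF bind a short promoter sequence, the CLEAR element, in many lysosomal genes. mTORC1, the nutrient-sensing kinase complex that the small GTPase Rheb switches on, phosphorylates these factors at the lysosomal surface and keeps them out of the nucleus.

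Gene expression was measured in total RNA from 14 mouse samples on Agilent arrays, 1 array and 1 dye (Cy3) per sample. Mice of the genotype Vav1-cre; Rheb1fl/fl, called Rheb1-/-, were set against wild-type mice. Vav1-cre is known to act throughout the blood-forming system, and how complete the loss was in each cell type is not known here beyond the level of Rheb itself. Myeloid progenitors and myeloid cells had 3 arrays per genotype and hematopoietic stem cells had 1 per genotype. The labels do not state age, sorting gates, pooling of animals, or whether the wild-type mice carried floxed alleles or the recombinase. Nor do they say which animal a sample came from, and the p-values therefore speak of the spread among samples, which may be technical. These were bulk samples, in which fewer cells of a type and less RNA per cell cannot be told apart.

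The level of a gene is given throughout as its log2 processed intensity above the 75th percentile of its array, so that 1 unit is a doubling, and values of 3 arrays follow the order of their replicate numbers. Levels of different genes come from different probes and are not compared with one another. Differences are log2 differences between group means ± SE from a limma fit over the 12 replicated arrays, and passing means an adjusted p under 0.05 (Benjamini-Hochberg over 17724 genes).

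Between 58.5% and 67.5% of the probes on an array were well above background and none was saturated. Rheb stood at 3.99, 4.08 and 3.82 on the wild-type progenitor arrays and at 3.31, 2.69 and 2.65 on the Rheb1-/- ones (-1.08 ± 0.22, adjusted p = 0.095), and at 3.61, 3.00 and 2.86 against 2.23, 2.16 and 2.43 in myeloid cells (-0.88 ± 0.22, adjusted p = 0.0121). The groups did not overlap in either cell type, and the labels do not say whether the probe lies in the deleted part. The wild-type myeloid cell arrays lay on slide 1 and the Rheb1-/- ones on slide 4, so in myeloid cells genotype and slide cannot be told apart, whereas slide 3 held 2 progenitor arrays of each genotype. Wild-type progenitor array 1 and the wild-type stem cell array, both on slide 2, were scanned on a different day from all other arrays. In wild type, 10 of 10 measured neutrophil markers and 14 of 15 monocyte and macrophage markers were higher in myeloid cells than in progenitors, and 8 of 8 myeloid progenitor markers were lower. The wild-type stem cell array stood apart from its label: its levels of the macrophage genes C1qa, Cd5l and Adgre1 were 4.97, 5.51 and 4.19, against -0.01, -0.48 and -0.28 on the Rheb1-/- stem cell array.

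The promoter sequences of the members show how the element read by the MiT/TFE factors is spread over these genes. Of the 41 members, 36 have an entry in the RefSeq promoter table for GRCm38.p6, which runs from 250 bases before to 50 bases after each start site. The E-box CACGTG, which reads the same on both strands, lay in 11 of these 36 members (30.6%) and in 8.09% of all 27025 genes of the table. Extended by 1 base to TCACGTG on either strand, it lay in the same 11 members and in 4.29% of genes, and the 8-base GTCACGTG lay in 9 members (25.0%) and 2.55% of genes. The full palindrome GTCACGTGAC was found in 0 of the 36 members and in 0.37% of genes. Each longer motif contains the shorter ones. By class, TCACGTG was in 6 of 17 hydrolases, 3 of 8 V-ATPase genes, 2 of 6 membrane proteins, 0 of 3 regulators and 0 of 2 cofactors, and its centres lay between positions -224 and 0 from the start site. The sequences differ among themselves, and a match is a description of letters, not a measured binding site.

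The whole promoters of 4 members that carry the results below and hold GTCACGTG are printed 5′ to 3′ on the strand of the gene, from RefSeq (GRCm38.p6), with the E-box and its adjoining matching bases (GT before, AC after) in capitals. Gla and Glb1 were the members that rose in myeloid cells after Rheb1 loss, Lgmn had the largest difference between cell types, and Atp6v0d1 is the V-ATPase gene whose motif spans its start site.
Gla chrX:134600956-134601255 (- strand): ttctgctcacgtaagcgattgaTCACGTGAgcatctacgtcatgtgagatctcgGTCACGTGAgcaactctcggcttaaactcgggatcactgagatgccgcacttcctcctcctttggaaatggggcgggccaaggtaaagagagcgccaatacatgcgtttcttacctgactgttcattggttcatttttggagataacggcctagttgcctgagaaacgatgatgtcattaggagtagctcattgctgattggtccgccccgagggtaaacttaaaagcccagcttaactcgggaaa
Glb1 chr9:114400828-114401127 (+ strand): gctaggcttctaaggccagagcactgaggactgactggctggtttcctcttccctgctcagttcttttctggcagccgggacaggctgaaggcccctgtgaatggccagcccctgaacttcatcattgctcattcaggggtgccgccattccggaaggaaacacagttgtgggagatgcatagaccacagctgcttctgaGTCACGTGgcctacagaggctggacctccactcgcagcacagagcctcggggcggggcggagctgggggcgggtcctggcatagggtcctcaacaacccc
Lgmn chr12:102439043-102439342 (- strand): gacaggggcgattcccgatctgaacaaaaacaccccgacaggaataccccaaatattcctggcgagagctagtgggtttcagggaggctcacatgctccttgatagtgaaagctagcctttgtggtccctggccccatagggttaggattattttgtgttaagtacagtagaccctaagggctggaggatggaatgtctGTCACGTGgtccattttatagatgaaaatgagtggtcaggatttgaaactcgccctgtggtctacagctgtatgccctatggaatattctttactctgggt
Atp6v0d1 chr8:105566015-105566314 (- strand): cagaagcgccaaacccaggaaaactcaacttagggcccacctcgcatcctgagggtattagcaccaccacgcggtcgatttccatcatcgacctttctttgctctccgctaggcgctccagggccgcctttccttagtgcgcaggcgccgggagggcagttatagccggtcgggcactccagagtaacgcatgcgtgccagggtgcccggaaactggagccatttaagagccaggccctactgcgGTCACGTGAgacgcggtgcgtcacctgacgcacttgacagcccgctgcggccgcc

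For the other 7 members that hold TCACGTG, a stretch of 28 bases around each match is printed in the same way, to show how the flanking bases vary while the core is shared.
Lamp1 chr8:13159089-13159116 (+ strand): gggcaagataTCACGTGgtccagcgccc
Lamp1 chr8:13159105-13159132 (+ strand): ggtccagcgccCACGTGAtgccgactgg
Lamp1 chr8:13159122-13159149 (+ strand): atgccgactggCACGTGACcacatcacg
Lamp1 chr8:13159135-13159162 (+ strand): cgtgaccacaTCACGTGcggaacggagc
Mcoln1 chr8:3500437-3500464 (+ strand): gtcgcgcttGTCACGTGttcagttcagg
Mcoln1 chr8:3500463-3500490 (+ strand): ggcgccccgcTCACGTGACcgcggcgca
Arsa chr15:89477424-89477451 (- strand): caactcagtGTCACGTGttgtctgctcc
Gaa chr11:119267812-119267839 (+ strand): ttctgtgcgaTCACGTGtttgactctga
Naglu chr11:101070010-101070037 (+ strand): aaccttcagGTCACGTGgcccgaggtcg
Atp6v0b chr4:117887349-117887376 (- strand): tgcgcggggGTCACGTGgggtcggcgca
Atp6v0b chr4:117887331-117887358 (- strand): ggtcggcgcaTCACGTGcgccggtcagg
Atp6v1a chr16:44139374-44139401 (- strand): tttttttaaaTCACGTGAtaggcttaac

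Lamp1 has the most matches of these promoters, 4 in a short run, and Gla, Mcoln1 and Atp6v0b have 2 each.

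**Figure D1:**
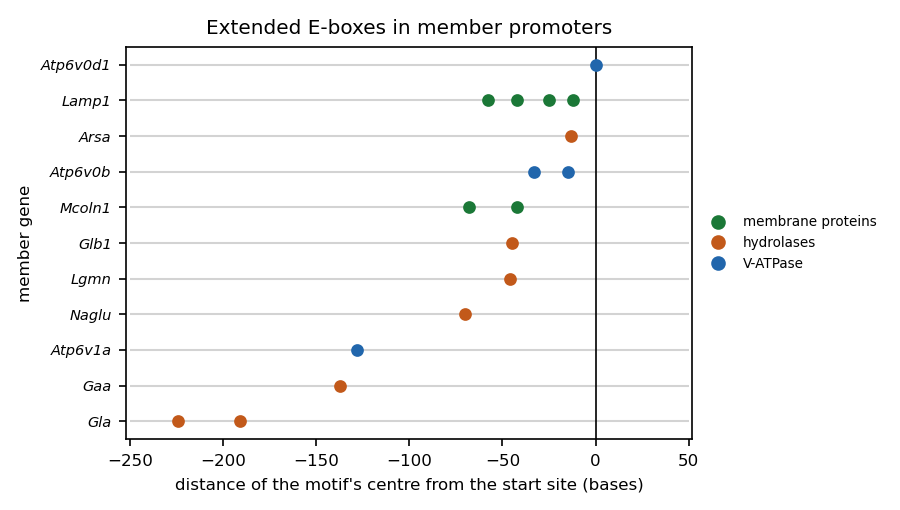
Distance in bases from the start site to the centre of each TCACGTG match (either strand) in the promoters of the 11 members that hold one; each grey line is a 300-base promoter window, each point a match, and colour gives the class. Lamp1 has 4 matches, and the matches of Gla lie farthest from the start site, at -224 and -191.

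**Figure D2:**
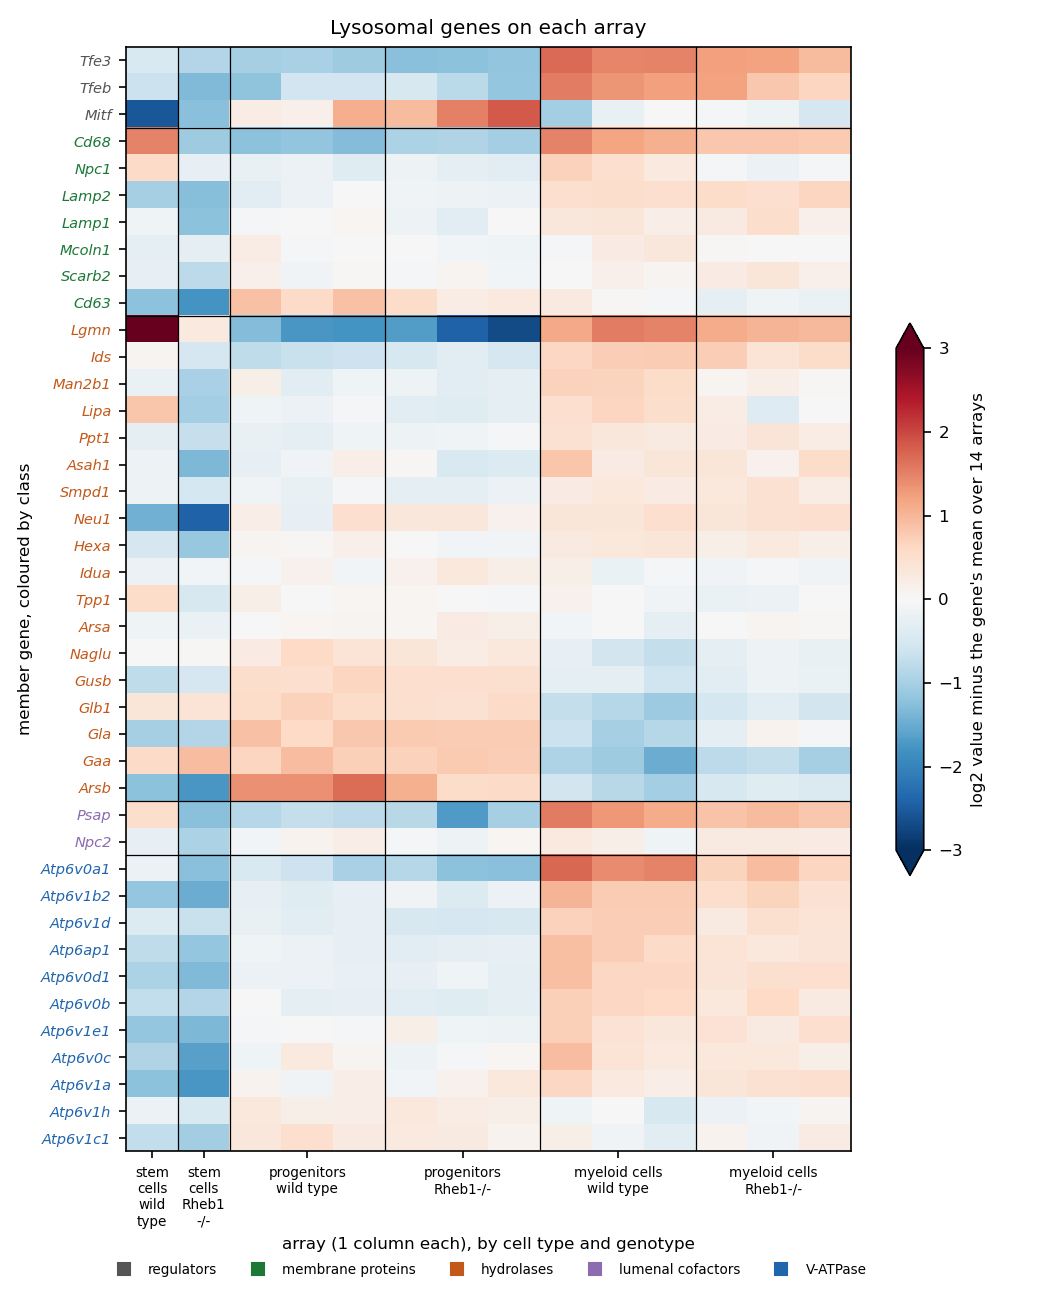
Level of each of the 41 members on each of the 14 arrays, as the log2 value minus the gene's mean over the arrays, with rows grouped by class and columns by cell type and genotype; colours are clipped at 3 log2 units either way. The V-ATPase rows are mostly red on the myeloid cell arrays, a block of hydrolases at the foot of its class is blue there, and Lgmn and Cd68 are red on the wild-type stem cell array.

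The first comparison asks how the lysosomal genes differ between wild-type myeloid cells and the progenitors. They did not move as 1 group. Tfeb, Tfe3, Cd68, Lgmn, Psap and most V-ATPase genes were higher in myeloid cells, while a set of glycosidases and a sulfatase were lower. Of the 41 members 23 (56.1%) were higher and 10 (24.4%) lower, and 8 did not pass. Over all genes 39.5% were higher and 38.4% lower, 77.9% in either direction. The median difference of the members was 0.40, with a range from -2.27 to 3.00, beside a median of 0.07 over all genes. The groups did not overlap for 33 of the 41, against 80.0% of all genes. The wild-type myeloid cell arrays were on slide 1 and the wild-type progenitor arrays on slides 2 and 3, so cell type and slide cannot be told apart in wild type. Markers of other cells also differed: 6 of 7 dendritic, 4 of 5 tested B cell and 6 of 7 T and NK cell markers were higher in wild-type myeloid cells, and 6 of 8 eosinophil, basophil and mast cell markers and 4 of 6 megakaryocyte markers were lower. Of 6 tested erythroid markers 3 were higher and 1 lower in wild-type myeloid cells. The log2 of their summed level, in which bright genes weigh most, ranged from 3.00 to 4.18 in progenitors and from 9.51 to 10.19 in myeloid cells. The part of all these cells in the members' differences was not tested.

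Among the regulators, Tfe3 stood at -1.43, -1.42 and -1.51 on the wild-type progenitor arrays and at 1.26, 1.02 and 1.05 on the wild-type myeloid cell arrays. All myeloid cell values lay far above the progenitor ones, a difference of 2.57 ± 0.10 or 5.92-fold (adjusted p = 1.37e-08). Tfeb, the family member best known for driving lysosome formation, was at -3.54, -2.92 and -2.91 in progenitors and -0.81, -1.0 and -1.11 in myeloid cells, again without overlap (2.15 ± 0.22, adjusted p = 8.43e-06). Mitf, which in other lineages directs mast cells, osteoclasts and pigment cells, went the other way on its chosen probe. Mitf had values of -0.97, -1.05 and -0.11 in progenitors and -2.21, -1.42 and -1.19 in myeloid cells, close at their nearest but not overlapping (-0.90 ± 0.33, adjusted p = 0.031). Its direction is not settled, because the other well-measured probe of the gene gave 0.67, and the call was also lost without wild-type progenitor array 3 or without wild-type myeloid cell array 1 (-0.60 in both cases).

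Of the 7 membrane proteins 4 were higher in wild-type myeloid cells, 1 was lower and 2, Scarb2 and Mcoln1, did not pass. Cd68, a heavily glycosylated protein of macrophage lysosomes, stood at 0.41, 0.46 and 0.33 in progenitors and at 3.12, 2.82 and 2.70 in myeloid cells. The groups were separated by more than 2 units, a difference of 2.48 ± 0.10 or 5.56-fold (adjusted p = 2.01e-08). Npc1, which moves cholesterol out of the lysosome, was at -1.24, -1.21 and -1.39 in progenitors and -0.33, -0.52 and -0.72 in myeloid cells (0.76 ± 0.11, adjusted p = 0.000101). The myeloid values of Npc1 were all higher, but with the mean of all its probes the difference was 0.43 and did not pass. Lamp2, an abundant glycoprotein of the limiting membrane that also serves chaperone-mediated autophagy, was tight within each group, at 3.90, 4.02 and 4.18 in progenitors and at 4.70, 4.72 and 4.70 in myeloid cells (0.67 ± 0.08, adjusted p = 3.57e-05). The tetraspanin Cd63 was the member of this class that was lower, at 6.30, 6.0 and 6.30 in progenitors and 5.68, 5.45 and 5.35 in myeloid cells (-0.71 ± 0.13, adjusted p = 0.000457). Lamp1, the partner of Lamp2, differed by 0.30 ± 0.12 (adjusted p = 0.0402), a call lost in 7 of the 12 fits that leave out 1 array, namely without any 1 of the wild-type progenitor arrays (0.28, 0.29 and 0.33), wild-type myeloid cell array 1 or 2 (0.28 and 0.26), or array 1 of either Rheb1-/- cell type (0.30).

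The 18 hydrolases were divided: 8 were higher, 6 lower and 4 did not pass, with a median of 0.09. Lgmn, encoding legumain, the asparaginyl endopeptidase that also matures cathepsins, had the largest difference of all members. Its values were -1.12, -1.57 and -1.63 in progenitors and 1.32, 1.72 and 1.65 in myeloid cells, 8.02-fold apart with no overlap (3.00 ± 0.24, adjusted p = 1.15e-06). Ids, which removes sulfate from dermatan and heparan sulfate, was also clearly higher, at 3.00, 3.11 and 3.13 against 1.61, 1.70 and 1.76 (1.39 ± 0.10, adjusted p = 4.86e-07). Man2b1, Lipa, Ppt1, Asah1, Smpd1 and Hexa were higher by 0.72, 0.68, 0.56, 0.54, 0.40 and 0.23. They encode the lysosomal mannosidase, acid lipase, palmitoyl-protein thioesterase, acid ceramidase, acid sphingomyelinase and a beta-hexosaminidase subunit.

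Arsb, the sulfatase that acts on chondroitin and dermatan sulfate, fell furthest. Its levels were 2.63, 2.62 and 2.92 in progenitors and 0.70, 0.42 and 0.23 in myeloid cells, 4.84-fold lower in the latter (-2.27 ± 0.16, adjusted p = 5.12e-07). Gaa, the glucosidase that degrades glycogen, was at 1.86, 2.15 and 1.93 in progenitors and at 0.30, 0.15 and -0.28 in myeloid cells (-1.92 ± 0.15, adjusted p = 8.43e-07). Gla, which cleaves terminal alpha-galactose from glycolipids, was at 2.49, 2.22 and 2.43 in progenitors and at 0.98, 0.63 and 0.77 in myeloid cells (-1.59 ± 0.12, adjusted p = 9.05e-07). In all 3 genes every myeloid cell value lay more than 1 unit under every progenitor value. Glb1, the beta-galactosidase used as a marker of lysosomal mass and senescence, was lower by a similar amount (-1.49 ± 0.11, adjusted p = 4.80e-07), as were Gusb (-0.96 ± 0.10) and Naglu (-0.92 ± 0.13) by less. Gusb and Naglu encode enzymes of glycosaminoglycan breakdown. Neu1, Idua, Tpp1 and Arsa did not pass, with differences from -0.17 to 0.26. The calls of Lipa and Hexa did not hold under every setting: Lipa gave 0.42 with the mean of its probes, Hexa 0.13 after quantile normalization, and Asah1 lost its call without wild-type progenitor array 1 or 2 or wild-type myeloid cell array 1 (0.44, 0.52 and 0.36).

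Psap, the precursor of the saposins that present lipids to several of these hydrolases, stood at 3.13, 3.27 and 3.20 in progenitors and at 5.54, 5.27 and 5.09 in myeloid cells. Every myeloid value was well above every progenitor value, 4.29-fold in the mean (2.10 ± 0.20, adjusted p = 4.24e-06). Npc2, which hands cholesterol to Npc1, overlapped between the cell types (0.05 ± 0.12, adjusted p = 0.713).

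Of the V-ATPase, 8 of 11 genes were higher in wild-type myeloid cells, 2 were lower and Atp6v1a did not pass, with a median of 0.81. Atp6v0a1, the a1 isoform of the membrane-sector subunit that steers the pump to its compartment, went from -0.77, -0.93 and -1.30 in progenitors to 1.40, 1.09 and 1.17 in myeloid cells (2.22 ± 0.16, 4.67-fold, adjusted p = 6.57e-07). Its other well-measured probes gave 1.99 and 3.91. Atp6v1b2, an ATP-binding subunit of V1, was at -0.01, -0.11 and -0.01 in progenitors and at 1.25, 1.01 and 1.01 in myeloid cells (1.13 ± 0.11, adjusted p = 4.17e-06). Atp6v1d, part of the central stalk, was at 3.75, 3.64 and 3.74 in progenitors and at 4.68, 4.71 and 4.72 in myeloid cells (1.00 ± 0.08, adjusted p = 7.65e-07). The accessory subunit Atp6ap1 was at 2.34, 2.27 and 2.20 in progenitors and at 3.35, 3.19 and 3.03 in myeloid cells (0.92 ± 0.09, adjusted p = 4.90e-06). These 4 genes had no overlap between cell types.

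The membrane-sector genes Atp6v0d1 and Atp6v0b and the stalk gene Atp6v1e1 were higher by 0.90, 0.81 and 0.53. The proteolipid gene Atp6v0c passed (0.47 ± 0.17, adjusted p = 0.0269) although its groups overlapped, and lost its call without wild-type progenitor array 1 or 3 or wild-type myeloid cell array 1 (0.36, 0.47 and 0.27). The genes that were lower, Atp6v1c1 (-0.45 ± 0.14, adjusted p = 0.0134) and Atp6v1h (-0.43 ± 0.13, adjusted p = 0.0107), both encode V1 subunits that take part in the reversible assembly of the pump. The Atp6v1c1 call was lost without wild-type progenitor array 2 (-0.39) or wild-type myeloid cell array 3 (-0.33). Among the members called in this comparison with more than 1 well-measured probe, 15 of 16 further probes had the sign of the chosen one, and the exception was that of Mitf.

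**Figure D3:**
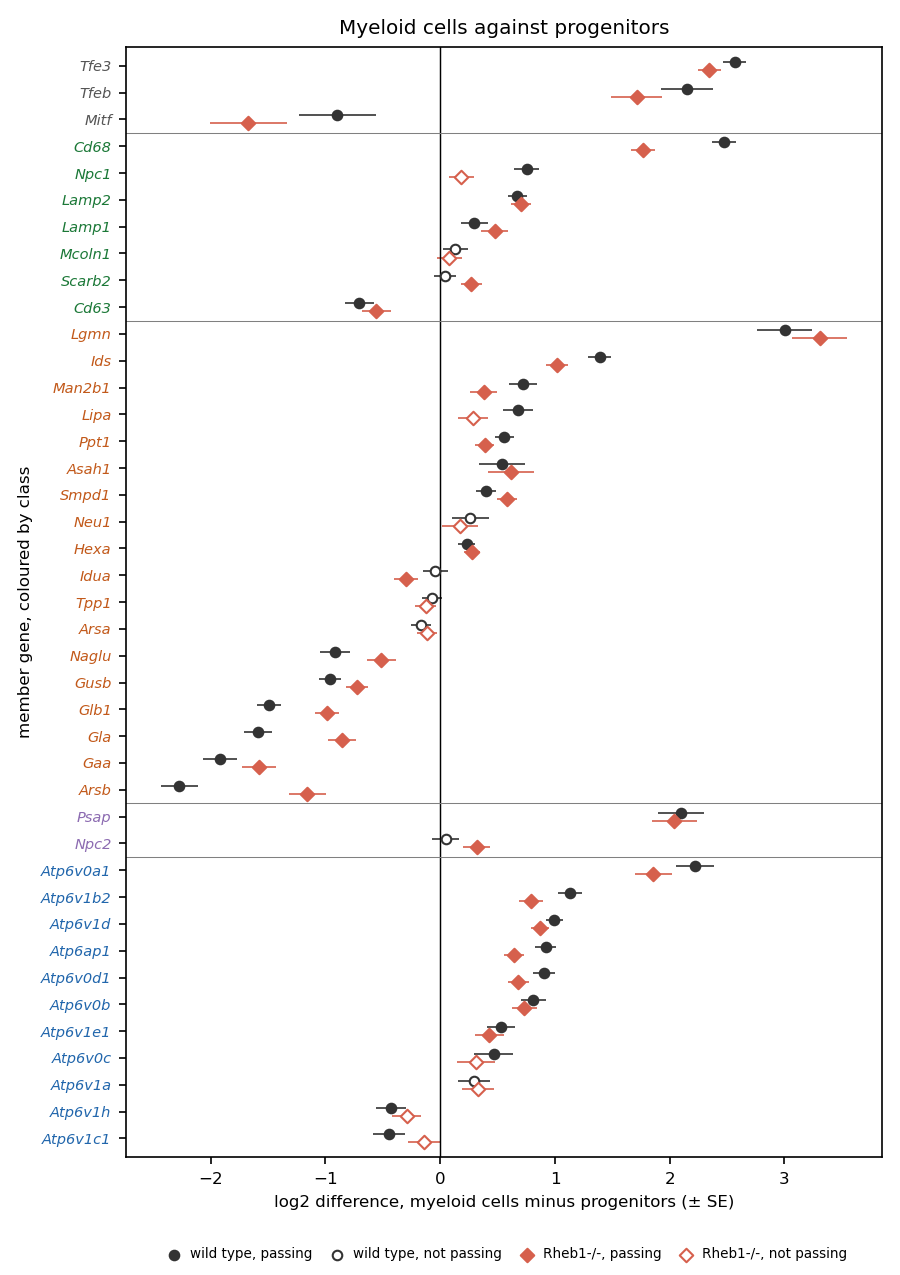
Log2 difference between myeloid cells and progenitors (± SE, n = 3 arrays per group) for each member in wild type (circles) and Rheb1-/- (diamonds), grouped by class; filled symbols passed at an adjusted p under 0.05. In both genotypes Lgmn lies farthest to the right, at 3.00 and 3.31, and Arsb, Gaa, Gla and Glb1 lie to the left of 0 with most V-ATPase genes to the right.

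The same comparison within Rheb1-/- mice asks whether the pattern is present in that genotype. Of the 41 members 22 (53.7%) were higher in Rheb1-/- myeloid cells than in Rheb1-/- progenitors and 9 (22.0%) were lower, against 30.3% and 38.2% of all genes and 68.6% in either direction. The groups did not overlap for 35 members, against 73.2% of all genes. The members' median was 0.32, from -1.67 to 3.31, beside -0.08 over all genes. Side by side with wild type, 20 members were called higher and 8 lower in both genotypes, and 0 were called in opposite directions. The share of all genes called alike in both was not computed. Calls in either direction took in 77.9% of all genes in wild type and 68.6% in Rheb1-/-, so the overlap is not read as a trait of the members. Slide 4 held Rheb1-/- progenitor array 3 with all 3 Rheb1-/- myeloid cell arrays. Within that slide the difference had the sign of the full fit for 31 of the 31 called members. Its arrays are part of the full fit and the members were chosen for passing there, so this agreement is no separate check of slide. The slide holds only 1 progenitor array, and the share over all genes was not computed. Of the markers, 9 of 10 neutrophil, 12 of 15 monocyte and macrophage, 4 of 7 dendritic, 3 of 5 tested B cell and 3 of 7 T and NK cell markers were higher in Rheb1-/- myeloid cells. Lower were 7 of 8 myeloid progenitor and 6 of 8 eosinophil, basophil and mast cell markers. Of 6 tested erythroid markers 3 were higher and 3 lower, and their summed level ranged from 1.91 to 3.85 in progenitors and from 6.67 to 8.81 in myeloid cells. The part of all these cells in the members' values was not tested.

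Tfe3 was at -1.68, -1.67 and -1.62 in Rheb1-/- progenitors and at 0.79, 0.77 and 0.51 in Rheb1-/- myeloid cells (2.35 ± 0.10, adjusted p = 6.0e-08; 2.31 within slide 4). Tfeb was at -2.82, -3.16 and -3.49 in Rheb1-/- progenitors and at -1.12, -1.52 and -1.68 in Rheb1-/- myeloid cells (1.71 ± 0.22, adjusted p = 6.45e-05; 2.04 within the slide). Both were again higher in every myeloid cell array. Mitf, on its chosen probe, was at -0.25, 0.31 and 0.63 in Rheb1-/- progenitors and at -1.27, -1.34 and -1.71 in Rheb1-/- myeloid cells (-1.67 ± 0.33, adjusted p = 0.00122), while its other probe gave 0.65.

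Among the membrane proteins, Cd68 was at 0.69, 0.73 and 0.61 in Rheb1-/- progenitors and 2.45, 2.45 and 2.42 in Rheb1-/- myeloid cells (1.77 ± 0.10, adjusted p = 2.80e-07; 1.83 within slide 4). Lamp2 was at 4.11, 4.04 and 4.04 in Rheb1-/- progenitors and at 4.74, 4.71 and 4.85 in Rheb1-/- myeloid cells (0.70 ± 0.08, adjusted p = 3.48e-05; 0.73 within the slide). These genes kept a wide gap between the cell types. Cd63 was lower at 5.14, 5.29 and 5.22 against 5.97, 5.64 and 5.72 (-0.56 ± 0.13, adjusted p = 0.0026), and Lamp1 higher at 5.36, 5.60 and 5.22 against 4.94, 4.73 and 5.08 (0.48 ± 0.12, adjusted p = 0.00453). Within slide 4 Cd63 and Lamp1 had differences of -0.50 and 0.32, and neither passed there. Npc1, called in wild type, had overlapping groups here (0.18 ± 0.11, adjusted p = 0.164). Scarb2, the receptor that carries glucocerebrosidase to the lysosome, passed with 0.27 ± 0.09 (adjusted p = 0.0251), a call lost in 4 of 12 fits without 1 array: Rheb1-/- progenitor array 1 or 3, or Rheb1-/- myeloid cell array 1 or 2 (0.26, 0.24, 0.28 and 0.22).

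Of the hydrolases, 7 were higher, 7 lower and 4 did not pass. Lgmn was at -1.51, -2.26 and -2.52 in Rheb1-/- progenitors and 1.28, 1.20 and 1.15 in Rheb1-/- myeloid cells, 9.91-fold apart (3.31 ± 0.24, adjusted p = 9.75e-07; 3.73 within slide 4). Ids was at 1.90, 2.03 and 1.86 in Rheb1-/- progenitors and at 3.13, 2.80 and 2.92 in Rheb1-/- myeloid cells (1.02 ± 0.10, adjusted p = 7.31e-06; 1.09 within the slide). In both genes the lowest myeloid value exceeded the highest progenitor value. Gaa was at 1.91, 2.01 and 1.97 in Rheb1-/- progenitors and at 0.44, 0.50 and 0.22 in Rheb1-/- myeloid cells (-1.58 ± 0.15, adjusted p = 5.55e-06; -1.58 within the slide). Arsb was at 2.31, 1.80 and 1.83 in Rheb1-/- progenitors and at 0.76, 0.89 and 0.81 in Rheb1-/- myeloid cells (-1.16 ± 0.16, adjusted p = 0.000107; -1.01 within the slide). Both were lower in every myeloid array. Glb1, Gla, Gusb and Naglu were lower, with differences of -0.98, -0.86, -0.73 and -0.51, and Naglu gave 0.01 with the mean of its probes.

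Smpd1, Asah1, Ppt1, Man2b1 and Hexa were higher in Rheb1-/- myeloid cells by 0.58, 0.62, 0.39, 0.38 and 0.28. Asah1 lost its call without Rheb1-/- progenitor array 2 or 3 or Rheb1-/- myeloid cell array 3 (0.53, 0.55 and 0.51), and Man2b1 without Rheb1-/- progenitor array 2 or Rheb1-/- myeloid cell array 2 (0.34 and 0.33). Idua, the iduronidase of glycosaminoglycan breakdown, passed with -0.30 ± 0.11 (adjusted p = 0.0289), which was lost without Rheb1-/- progenitor array 2 or 3 or Rheb1-/- myeloid cell array 1 or 3 (-0.25, -0.31, -0.29 and -0.28). With slide as a fixed block, Ppt1 (0.35, adjusted p = 0.052), Hexa (0.30, adjusted p = 0.0527) and Asah1 (0.75, adjusted p = 0.0574) did not pass, nor did Lamp1, Cd63, Scarb2, Idua and Npc2 (adjusted p from 0.0544 to 0.281), and Hexa gave 0.16 (adjusted p = 0.0504) after quantile normalization. Lipa, higher in wild-type myeloid cells, had overlapping groups in Rheb1-/- mice (0.28 ± 0.13, adjusted p = 0.0805).

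Psap was at 3.15, 2.29 and 3.00 in Rheb1-/- progenitors, where array 2 was the lowest, and at 4.85, 4.92 and 4.80 in Rheb1-/- myeloid cells (2.04 ± 0.20, adjusted p = 7.88e-06; 1.86 within slide 4). Npc2 was at 4.33, 4.24 and 4.44 in Rheb1-/- progenitors and at 4.67, 4.65 and 4.65 in Rheb1-/- myeloid cells (0.32 ± 0.12, adjusted p = 0.0324). The Npc2 groups did not overlap, but the call was lost in 5 of 12 fits without 1 array, those without Rheb1-/- progenitor array 1 or 2 or any 1 of the Rheb1-/- myeloid cell arrays (0.32, 0.27, 0.31, 0.32 and 0.32).

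Of the 11 V-ATPase genes 7 were higher, 0 lower and 4 did not pass. Atp6v0a1 was at -1.18, -1.55 and -1.58 in Rheb1-/- progenitors and at 0.34, 0.61 and 0.31 in Rheb1-/- myeloid cells (1.86 ± 0.16, adjusted p = 3.84e-06; 2.00 within slide 4). Atp6v1d was at 3.50, 3.48 and 3.50 in Rheb1-/- progenitors and at 4.24, 4.45 and 4.40 in Rheb1-/- myeloid cells (0.87 ± 0.08, adjusted p = 3.27e-06; 0.86 within the slide). These were separated by more than the spread of either group. Atp6v1b2 was at 0.13, -0.16 and 0.06 in Rheb1-/- progenitors and at 0.77, 0.92 and 0.71 in Rheb1-/- myeloid cells (0.79 ± 0.11, adjusted p = 8.44e-05), and Atp6v0b, which encodes a proteolipid of the membrane ring, at 3.51, 3.48 and 3.56 in Rheb1-/- progenitors and at 4.17, 4.46 and 4.11 in Rheb1-/- myeloid cells (0.73 ± 0.11, adjusted p = 0.000169). Atp6v0d1, Atp6ap1 and Atp6v1e1 were higher by 0.68, 0.65 and 0.43. Atp6v0c, Atp6v1a, Atp6v1h and Atp6v1c1 did not pass (0.31, 0.33, -0.29 and -0.14).

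The comparison of Rheb1-/- with wild-type myeloid cells asks how the lysosomal genes of mature cells differ between the genotypes. Rheb itself was lower in Rheb1-/- myeloid cells but still well above background on all 3 arrays. The hydrolases Gla and Glb1 were higher in Rheb1-/- myeloid cells. Tfe3, Cd68, Npc1, Man2b1, Lipa, Atp6v0a1, Atp6v1d and Atp6ap1 were lower. These are 2 (4.88%) and 8 (19.5%) of the 41 members, beside 16.7% of all genes higher and 17.6% lower (34.2% in either direction), so the share that fell was close to that of all genes. The members' median was -0.10, from -0.80 to 0.75, beside -0.08 over all genes. The groups did not overlap for 20 members, against 50.2% of all genes.

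Markers of other cells moved with the same contrast. Of 8 myeloid progenitor markers 7 were higher in Rheb1-/- myeloid cells, and the log2 of their summed level ranged from 9.32 to 9.59 in wild type and from 10.13 to 10.59 in Rheb1-/-. Of 15 monocyte and macrophage markers 9 were lower, with summed levels from 9.34 to 9.39 in wild type and from 8.99 to 9.06 in Rheb1-/-. Lower as well were 4 of 7 dendritic, 4 of 6 measured erythroid, 5 of 6 megakaryocyte and 3 of 5 tested B cell markers, and 2 of 10 neutrophil markers, while of 7 T and NK cell markers 1 was higher and 4 lower, and of 8 eosinophil, basophil and mast cell markers 3 were lower. The part of these cells in the members' differences was not tested, and slide cannot be told apart from genotype here.

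Tfe3 stood at 1.26, 1.02 and 1.05 on the wild-type myeloid cell arrays and at 0.79, 0.77 and 0.51 on the Rheb1-/- ones, lower without overlap (-0.42 ± 0.10, adjusted p = 0.00955). A second probe, well above background on all 14 arrays, gave -0.50, and another, well above background on 12 of 14, gave 0.14. Tfeb was at -0.81, -1.0 and -1.11 in wild type and at -1.12, -1.52 and -1.68 in Rheb1-/-, also without overlap but with a wider spread, and did not pass (-0.47 ± 0.22, adjusted p = 0.131). Mitf overlapped, at -2.21, -1.42 and -1.19 in wild type and at -1.27, -1.34 and -1.71 in Rheb1-/- (0.17 ± 0.33, adjusted p = 0.723), and its sign turned without wild-type myeloid cell array 1 (-0.13).

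Npc1 was at -0.33, -0.52 and -0.72 in wild-type myeloid cells and -1.06, -1.20 and -1.06 in Rheb1-/- ones (-0.58 ± 0.11, 1.5-fold, adjusted p = 0.00337). With the mean of its probes the difference was -0.26 and did not pass. Cd68 was at 3.12, 2.82 and 2.70 in wild type and at 2.45, 2.45 and 2.42 in Rheb1-/- (-0.43 ± 0.10, adjusted p = 0.0106). For both genes the lowest wild-type array lay above the highest Rheb1-/- array. The other 5 membrane protein genes did not pass, with differences from -0.28 for Cd63 to 0.18 for Scarb2.

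Gla had the largest rise of the members in myeloid cells: it was at 0.98, 0.63 and 0.77 in wild type and 1.35, 1.72 and 1.56 in Rheb1-/- (0.75 ± 0.12, 1.68-fold, adjusted p = 0.00178), and its second probe gave 0.51. Glb1 was at 1.56, 1.42 and 1.20 in wild type and at 1.76, 1.94 and 1.73 in Rheb1-/- (0.42 ± 0.11, adjusted p = 0.0137), with 0.33 on its second probe. Of the 11 members whose promoters hold TCACGTG, 2 (18.2%) were called higher in this contrast, close to the 16.7% of all genes, 0 lower and 9 not called. The Glb1 call was lost without Rheb1-/- myeloid cell array 2, its highest array (0.35, adjusted p = 0.0507).

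Lipa, the lipase that frees cholesterol and fatty acids from lipoproteins, was at 1.81, 1.93 and 1.82 in wild type and at 1.53, 0.92 and 1.29 in Rheb1-/-, tight in wild type and scattered in Rheb1-/- (-0.60 ± 0.13, 1.52-fold, adjusted p = 0.00708). With the mean of its probes it gave -0.67 and did not pass. Man2b1, which trims mannose from glycoproteins, was at 6.03, 6.01 and 5.90 in wild type and at 5.44, 5.55 and 5.39 in Rheb1-/- (-0.52 ± 0.12, adjusted p = 0.00851). Neither gene's groups overlapped. The remaining 14 hydrolases did not pass and ranged from -0.35 for Lgmn to 0.37 for Arsb.

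Of the cofactors, Psap was at 5.54, 5.27 and 5.09 in wild-type and 4.85, 4.92 and 4.80 in Rheb1-/- myeloid cells. The groups did not overlap, yet the difference of -0.45 ± 0.20 did not pass (adjusted p = 0.111). It passed in the fit without Rheb1-/- progenitor array 2 (adjusted p = 0.0212), the lowest Psap array of that group.

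Of the 11 V-ATPase genes 3 were lower and 8 did not pass, and the class had a median of -0.26. Atp6v0a1 had the largest fall of the members, from 1.40, 1.09 and 1.17 in wild type to 0.34, 0.61 and 0.31 in Rheb1-/- (-0.80 ± 0.16, 1.74-fold, adjusted p = 0.00511), and its further probes gave -0.47 and -1.30. Atp6ap1 was at 3.35, 3.19 and 3.03 in wild type and at 2.86, 2.78 and 2.84 in Rheb1-/- (-0.36 ± 0.09, adjusted p = 0.0117). Atp6v1d was at 4.68, 4.71 and 4.72 in wild type and at 4.24, 4.45 and 4.40 in Rheb1-/- (-0.34 ± 0.08, adjusted p = 0.00716). In these genes every Rheb1-/- array lay below every wild-type array. Atp6v0d1 and Atp6v1b2 came nearest among the others, with -0.26 ± 0.09 (adjusted p = 0.058) and -0.29 ± 0.11 (adjusted p = 0.0616).

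The difference between cell types in wild type uses the same wild-type myeloid cell arrays, so it can only be set beside these values. Gla had -1.59 between cell types and 0.75 after Rheb1 loss, Atp6v0a1 had 2.22 and -0.80, and Tfe3 had 2.57 and -0.42. In each of these genes the difference between cell types was the larger one. With the fit limited to the 6 myeloid cell arrays, Tfe3, Cd68, Glb1 and Atp6ap1 no longer passed (adjusted p of 0.0525, 0.0521, 0.0586 and 0.0572).

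**Figure D4:**
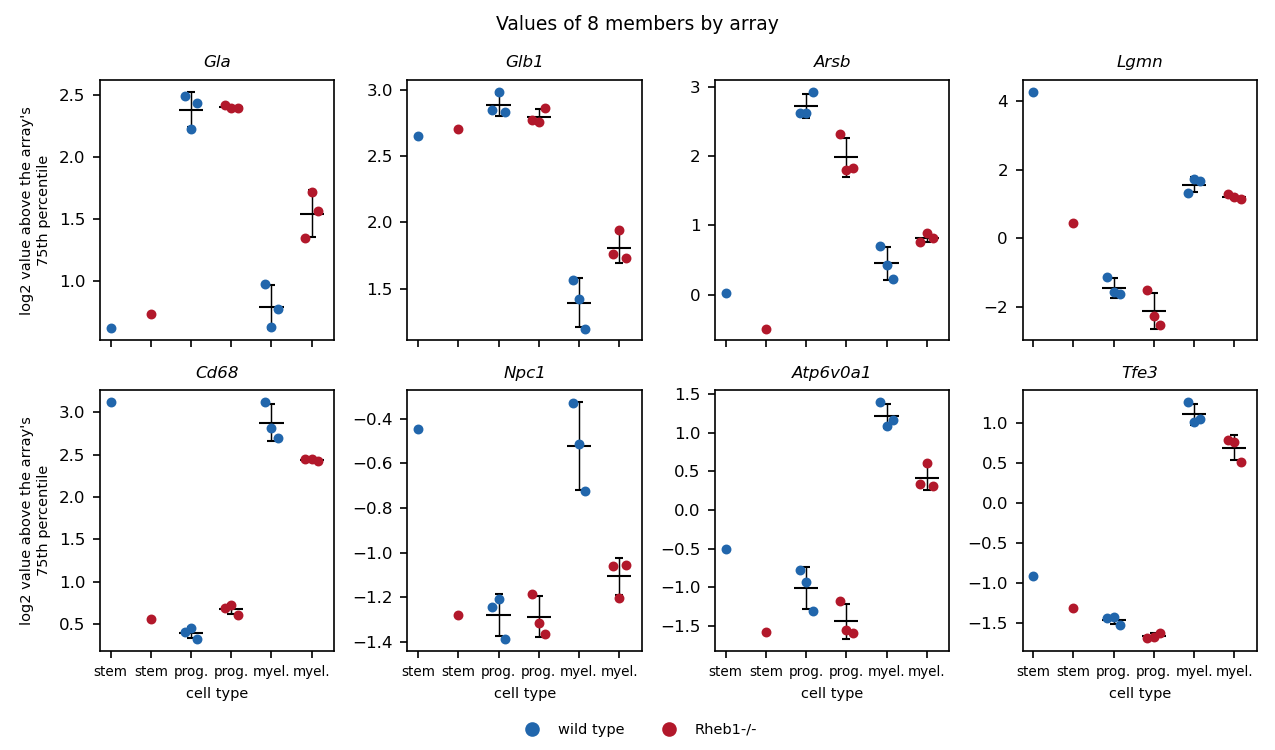
Level of 8 members on each array (log2 above the array's 75th percentile; each panel has its own vertical scale) for stem cells, progenitors (prog.) and myeloid cells (myel.) of both genotypes; bars give the mean ± SD of 3 arrays, and stem cells have 1 array per genotype. In myeloid cells Gla and Glb1 lie higher in Rheb1-/- than in wild type, whereas Cd68, Npc1, Atp6v0a1 and Tfe3 lie lower.

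In progenitors the same question gave no member that passed. In limma 0 of 41 members were called in either direction, beside 0.0508% of all genes higher, 0.0226% lower and 0.0733% in either direction, and 8 of the 41 (19.5%) had an unadjusted p under 0.05, beside 12.2% of all genes. The members' median was -0.09, from -0.74 to 0.94, beside 0.02 over all genes. The groups did not overlap for 9 members, against 20.0% of all genes. Within slide 3, with 2 arrays per genotype, 35 of the 41 differences had the sign of the full fit. These arrays are part of the full fit, so this agreement is no separate check, and the share over all genes was not computed.

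Arsb came nearest to passing. It stood at 2.63, 2.62 and 2.92 on the wild-type progenitor arrays and at 2.31, 1.80 and 1.83 on the Rheb1-/- ones, with array 1 of the latter closest to wild type and no overlap (-0.74 ± 0.16, adjusted p = 0.107; -0.72 within slide 3). Without that Rheb1-/- array it passed (-0.91, adjusted p = 0.0457). The smallest p among the membrane proteins was that of Cd63, at 6.30, 6.0 and 6.30 in wild type and at 5.97, 5.64 and 5.72 in Rheb1-/- (-0.43 ± 0.13, adjusted p = 0.226; -0.35 within the slide). Among the V-ATPase genes it was that of Atp6v1d, at 3.75, 3.64 and 3.74 in wild type and at 3.50, 3.48 and 3.50 in Rheb1-/- (-0.21 ± 0.08, adjusted p = 0.299). These groups did not overlap either.

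Mitf, on its chosen probe, was at -0.97, -1.05 and -0.11 in wild type and -0.25, 0.31 and 0.63 in Rheb1-/-, with overlap between the groups (0.94 ± 0.33, adjusted p = 0.301; 0.61 within slide 3). Its other well-measured probe gave 0.01. Tfe3 differed by -0.20 ± 0.10 (adjusted p = 0.452) without overlap, and Tfeb by -0.03 ± 0.22 (adjusted p = 0.98) with overlap. Psap, whose Rheb1-/- progenitor array 2 was the lowest of its group, differed by -0.39 ± 0.20 (adjusted p = 0.476). Among the markers of other cells, 1 of 15 monocyte and macrophage markers passed, Ms4a7, which was lower in Rheb1-/- progenitors (-1.82 ± 0.25, adjusted p = 0.0375) and well above background on 1 of the 3 arrays there, and 8 of the 15 had an unadjusted p under 0.05. None of 6 megakaryocyte markers passed, while all 6 had an unadjusted p under 0.05 and their log2 summed level ranged from 4.85 to 5.54 in wild type and from 2.76 to 3.89 in Rheb1-/-. None of 8 eosinophil, basophil and mast cell markers passed, with all 8 differences below 0 and summed levels from 9.58 to 9.82 and from 8.91 to 9.74. Their part in the members' values was not tested.

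**Figure D5:**
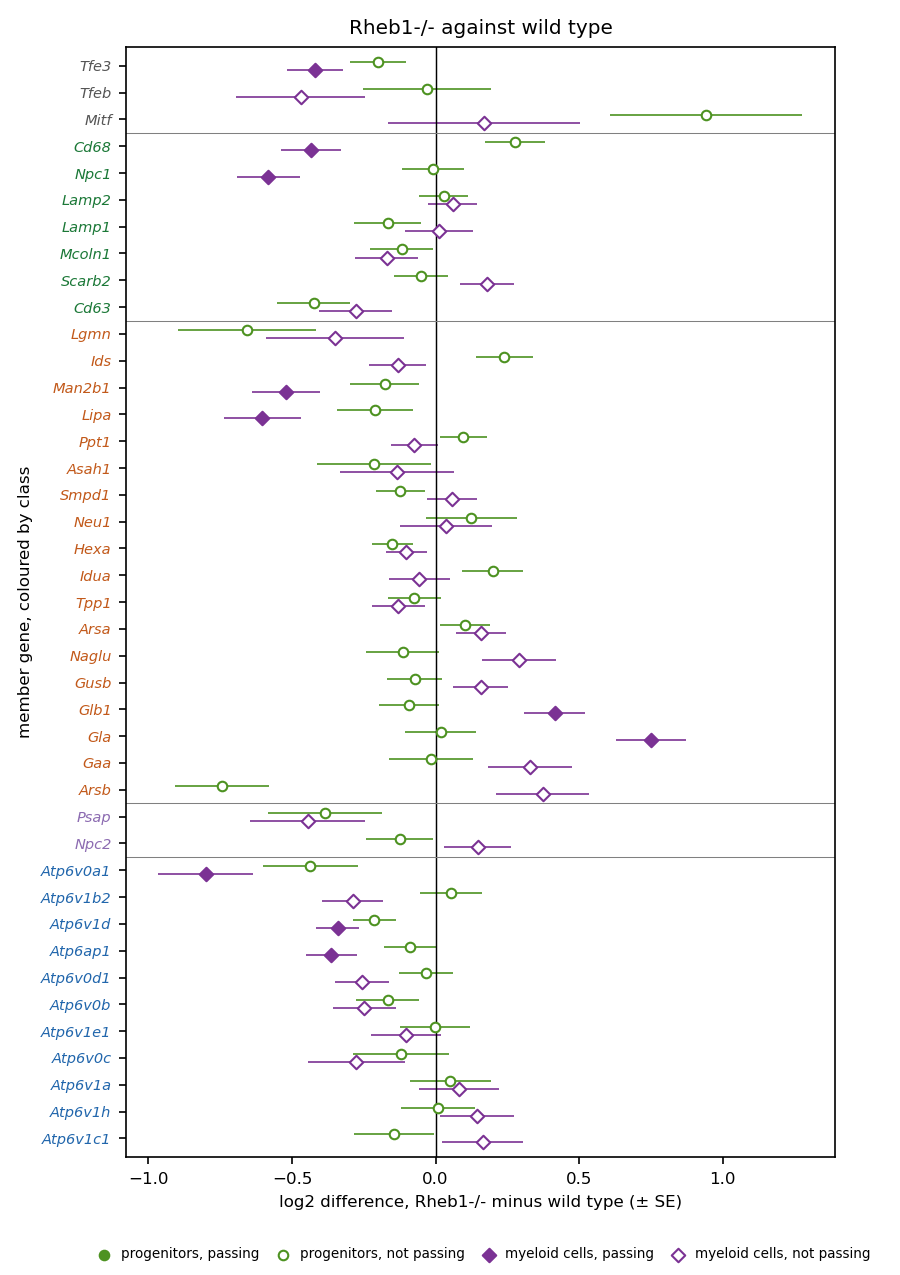
Log2 difference between Rheb1-/- and wild type (± SE, n = 3 arrays per group) for each member in progenitors (circles) and myeloid cells (diamonds), grouped by class; filled symbols passed at an adjusted p under 0.05. All progenitor circles are open, whereas 10 myeloid diamonds are filled, 8 of them to the left of 0.

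Whether the genotype difference itself differed between myeloid cells and progenitors was tested as the interaction of both factors. It passed for 2 members in each direction (4.88% and 4.88%), beside 5.62% of all genes higher and 5.45% lower (11.1% in either direction), so this share was near the background. Arsb was the largest: the Rheb1-/- value lay -0.74 from wild type in progenitors and 0.37 in myeloid cells, an interaction of 1.12 ± 0.23 (adjusted p = 0.019). Cd68 lay 0.28 from wild type in progenitors and -0.43 in myeloid cells (-0.71 ± 0.15, adjusted p = 0.0195). For these genes the genotype groups were separate in both cell types, in opposite directions.

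Gla differed by 0.02 ± 0.12 in progenitors (adjusted p = 0.978), at 2.49, 2.22 and 2.43 in wild type and 2.42, 2.39 and 2.39 in Rheb1-/-, while its rise in myeloid cells gave an interaction of 0.73 ± 0.17 (adjusted p = 0.0287). Npc1 differed by -0.01 ± 0.11 in progenitors (adjusted p = 0.988), at -1.24, -1.21 and -1.39 in wild type and at -1.19, -1.31 and -1.36 in Rheb1-/-, and had an interaction of -0.57 ± 0.15 (adjusted p = 0.0432). These calls are the less steady ones: leaving out 1 array ended that of Gla in 9 of 12 fits (0.64 to 0.83 over the 12) and that of Npc1 in 11 of 12 (-0.67 to -0.48), and the mean of all probes gave 0.00 for Npc1. The Gla call remained without array 2 of the wild-type progenitors or without array 1 of the myeloid cells of either genotype, and that of Npc1 without array 3 of the wild-type myeloid cells. Arsb and Cd68 passed in each of these fits. None of the regulators, cofactors or V-ATPase genes passed; the smallest p there were those of Mitf (-0.78 ± 0.47, adjusted p = 0.296; -0.03 on its other well-measured probe), Npc2 (0.27 ± 0.17, adjusted p = 0.296) and Atp6v1b2 (-0.34 ± 0.15, adjusted p = 0.16).

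Hematopoietic stem cells had 1 array per genotype, on different slides scanned on different days, so their differences have no replicate check and no test. Of the 41 members 15 (36.6%) were at least 1.5-fold lower on the Rheb1-/- array and 1 (2.44%) at least 1.5-fold higher, beside 10.3% and 15.2% of 16656 genes. The members' median difference was -0.41, beside 0.12 over all genes. Markers of several other cells differed in the same direction: 13 of 15 monocyte and macrophage markers were at least 1.5-fold lower on the Rheb1-/- array, their log2 summed level was 8.40 on the wild-type array and 6.68 on the Rheb1-/- array. Also at least 1.5-fold lower were 9 of 10 neutrophil, 5 of 7 dendritic, 4 of 5 erythroid and 5 of 5 B cell markers and 3 of 8 eosinophil, basophil and mast cell markers, among them Ccr3 (3.02 and -3.52). Other lists went the other way or were mixed. At least 1.5-fold higher were 3 of 8 myeloid progenitor and 2 of 8 stem cell markers, with 0 lower. All 8 myeloid progenitor and 6 of 8 stem cell differences were above 0. Past 1.5-fold, 1 of 6 megakaryocyte markers was higher and 1 lower, and of 7 T and NK cell markers 1 was higher and 3 lower. The part of these cells in the members' values was not tested.

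Lgmn stood at 4.26 on the wild-type stem cell array, above every other array of the series, and at 0.45 on the Rheb1-/- one, 14-fold lower. Cd68 was at 3.12 and 0.57, a difference of 5.87-fold, and the wild-type value equalled that of the highest wild-type myeloid cell array to 2 decimals. Lipa was at 2.13 and 0.28, and Psap at 4.51 and 2.74. These are the members with the largest differences between the arrays, and Lgmn and Cd68 are products prominent in macrophages. Asah1, Lamp1, Atp6v0a1 and Tpp1 were lower by 2.29-, 2.16-, 2.1- and 2.04-fold. Mitf was the member past 1.5-fold in the other direction (-3.75 and -2.46), and 0 members were past it with the mean of all probes or with the probe chosen over 14 arrays. All 11 V-ATPase genes were lower on the Rheb1-/- array, 2 of them by at least 1.5-fold, beside 10.3% of all genes that far lower. The share of all genes lower by any amount was not computed. Of 8 other V-ATPase subunits well above background on both arrays 3 were higher and 5 lower, 0 of them past 1.5-fold. Gla was at 0.62 and 0.74, and Glb1 at 2.65 and 2.70, neither past 1.5-fold.

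Lysosomal genes outside the 41 were looked at in the same fits. Together with the genes that tether mTORC1 to the lysosome they made a list of 80, of which 74 were tested. In wild type 35 (47.3%) were higher in myeloid cells than in progenitors and 26 (35.1%) lower, beside the 39.5% and 38.4% of all genes, with a median of 0.19. Slc11a1, the phagosomal metal ion transporter known for resistance to intracellular microbes, stood at -1.85, -1.93 and -1.43 in progenitors and 4.24, 4.17 and 4.12 in myeloid cells (5.92 ± 0.22, adjusted p = 1.32e-08). Cln3, a lysosomal membrane protein lost in a juvenile form of Batten disease, was higher by 2.66 ± 0.09 (adjusted p = 1.03e-08). In Rheb1-/- mice 34 (45.9%) were higher and 25 (33.8%) lower, beside 30.3% and 38.2%, with Slc11a1 at 5.23 ± 0.22 and Cln3 at 2.26 ± 0.09.

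After Rheb1 loss 0 of the 74 passed in progenitors by limma, beside 0.0733% of all genes. There 5 of the 74 had an unadjusted p under 0.05, beside 12.2% of all genes. In myeloid cells 5 (6.76%) were higher and 19 (25.7%) lower, beside 16.7% and 17.6% of all genes, with a median of -0.15. Slc11a1 was at 3.44, 2.70 and 3.15 in Rheb1-/- myeloid cells, below all 3 wild-type arrays (-1.08 ± 0.22, adjusted p = 0.00543). The testis-enriched V1 gene Atp6v1e2 was at -3.06, -3.58 and -3.31 in wild type and -4.86, -4.87 and -4.70 in Rheb1-/- (-1.49 ± 0.34, adjusted p = 0.00874). The interaction passed for 3 of the 74 (4.05%), beside 11.1% of all genes: Abcb9, a lysosomal peptide transporter (-0.80 ± 0.18, adjusted p = 0.023), Sidt2 (-0.57 ± 0.16, adjusted p = 0.0471), which is linked to nucleic acid uptake by lysosomes, and Dnase2a (-0.57 ± 0.15, adjusted p = 0.0374), the acid endonuclease that digests DNA of engulfed cells. All of them were lower in Rheb1-/- myeloid cells.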

How the data were processed

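Total RNA of the 14 samples was labelled with Cy3, per the labels' protocols. The deposited scanner files hold spot intensity, and the processed intensity used here had been background-subtracted within each array by Agilent Feature Extraction (10.7.3.1 per the file headers, 9.1 per the submitters' processing notes). An authors' table of log2 values for 41265 probes was also deposited; its sorted columns match to within 0.00234, and it served as an alternative.

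Control spots (1639 of 45018) and 79 to 195 outlier spots per array were left out, spots of a probe were averaged into 41174 probes, and names came from accessions or symbols in a RefSeq table for GRCm38.p6. Levels are log2 of that intensity after scaling each array to its 75th percentile. A gene entered the tests where some replicated group had its brightest probe well above background throughout. A model with 1 mean per group over 12 arrays was fitted in limma 3.58.1 (R 4.3.3), with a two-sided adjusted p under 0.05; it was tested on simulated data. Arrays came from 4 slides, and their number limits the precision. Deviations of same-numbered samples from their group means correlated at -0.15 to 0.13, so no pairing was seen. Whether same-numbered samples share an animal is not known.

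All 41 members are accounted for. Array values are given for the regulators and, per comparison and class, for up to 4 passing members of largest difference without overlap, or as values only for the member of smallest p. Further members are named as examples after their values were seen. Members and lists were chosen with earlier results of these data known. Alternatives were normexp correction (offset 50), quantile normalization, the deposited table, other probe and filter rules, replicate and slide blocks, fewer arrays and each array left out.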

Additional observations from a re-analysis of the deposited data

Results flagged for a closer look

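For 4 members the interaction, the test of whether the genotype difference was the same in myeloid cells and in progenitors, passed. They made up 4.88% of the members in each direction, near the 5.62% of all genes higher and 5.45% lower. The values are the log2 difference in myeloid cells less that in progenitors: 1.12 for Arsb, -0.71 for Cd68, 0.73 for Gla and -0.57 for Npc1. For Arsb and Cd68 the Rheb1-/- arrays lay on opposite sides of the wild-type arrays in the 2 cell types. For Gla and Npc1 the difference in progenitors was 0.02 and -0.01. Leaving out 1 array ended the call of Gla in 9 of 12 fits and that of Npc1 in 11 of 12. In myeloid cells genotype and slide cannot be told apart. No member's group had enough arrays for an outlier check.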

How the results depend on the processing

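Each comparison was recomputed under the alternatives named with the methods. In progenitors the count of all genes called, 13, became 33 with normexp correction, 7 with no filter, 4 with slide as a fixed block and 0 both with only the 6 arrays and with slide 3 alone; without 1 array it ranged from 6 to 77 (77 without Rheb1-/- progenitor array 1), and members lower from 0 to 1. In myeloid cells, members higher after Rheb1 loss, 2, became 4 with slide as a random block and 1 with only the 6 arrays. They became 1 to 5 without 1 array (5 without wild-type myeloid cell array 1). Members lower, 8, became 5 with only the 6 arrays. Genotype and slide cannot be told apart there, so the slide block, whose fitted correlation was -0.12, is no check of slide for these calls. The interaction called 1962 genes, 775 with no filter and 954 (without Rheb1-/- progenitor array 1) to 2164 without 1 array; members higher, 2, became 1 with no filter or the replicate block and 1 to 3 without 1 array, and members lower, 2, became 1 with no filter and 1 to 2 without 1 array. In Rheb1-/- mice members higher between cell types, 22, became 12 on slide 4 alone. In stem cells the 1 member higher became 0 with the mean of all probes and 0 with the probe chosen over all 14 arrays.

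Signs turned for Mitf with the probe chosen over all 14 arrays (-0.017 after Rheb1 loss in myeloid cells, 0.67 and 0.65 between cell types in wild type and Rheb1-/-), for Npc1 (interaction 0.0021) and Naglu (0.014 between cell types in Rheb1-/-) with the mean of probes, and for uncalled genes without 1 array: Tfeb in progenitors ranged from -0.24 to 0.14 and Mitf in myeloid cells from -0.13 to 0.38. The second probe of Npc1 was well above background on 2 of 14 arrays and that of Naglu on 0. The cause of these turns was not tested. The labels do not say whether the replicate numbers pair the samples. The replicate block also ended the interaction call of Gla (0.73, adjusted p = 0.0558), that of Lamp1 in wild type and that of Npc2 in Rheb1-/- mice. With 3 arrays per group small differences remain undecided.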

Other observations

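The genes that bring mTORC1 to the lysosome were measured on the same arrays. Of 12 Rag, Ragulator and folliculin genes, 6 were higher and 3 lower in wild-type myeloid cells than in progenitors, and 5 were higher and 4 lower in Rheb1-/- mice. The share called in either direction, 75% in both genotypes, stands beside 77.9% and 68.6% of all genes. Fnip2, a partner of folliculin that acts on the Rag GTPases, stood at -1.09, -0.88 and -0.94 in wild-type progenitors and at 0.44, 0.38 and 0.40 in wild-type myeloid cells (1.38 ± 0.11, adjusted p = 1.01e-06 in limma). In Rheb1-/- myeloid cells it was higher still, at 0.79, 1.04 and 0.94 (0.51 ± 0.11 against wild type, adjusted p = 0.00572). Rraga, a Rag GTPase, was lower there than in wild type (-0.24 ± 0.08, adjusted p = 0.0311). Rragb was well above background on 0 of 3 wild-type and 2 of 3 Rheb1-/- myeloid cell arrays, so its size there is not given.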
